A study of Mus musculus with 4 samples.

Results

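Immediate early genes are the genes that fibroblasts switch on within minutes of a growth factor signal, and 10 of them were examined here in mouse embryonic fibroblasts (MEFs) with and without Ip6k1. The genes were Fos, Fosb, Fosl1, Jun, Junb, Egr1, Ier2, Ier3, Dusp1 and Myc, chosen by name, and every probe that the array files assign to them was read. They have 14 probes on the array, on 41 spots, among 41174 probes for 27827 gene names. The comparison was between 2 Ip6k1+/+ and 2 Ip6k1-/- MEF lines, with 1 single-colour array per line. Each line came from 1 embryo at embryonic day 14, all from a single pair of heterozygous parents, and all 4 lines carry SV40 large T antigen, which immortalised them. The cells were growing exponentially and were harvested with trypsin after 2 passages. The labels name no serum starvation and no stimulation step, and with a single harvest per line the values show no response over time. Trypsin, PBS and RNAlater came before RNA extraction, and any effect of this handling on the early genes was not tested. The question asked was which transcripts differ in fibroblasts that lack IP6K1, an enzyme that makes inositol pyrophosphates.

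The products of these genes form the first transcriptional layer below the Ras-ERK, JNK and p38 kinases. FOS and JUN proteins pair through leucine zippers to form AP-1, a transcription factor that binds its target genes as a dimer. EGR1 is a zinc finger activator, MYC drives genes of growth and ribosome production, and DUSP1 is a phosphatase that switches the MAP kinases off again. In fibroblasts, serum acts on several of these genes through the serum response factor SRF, which binds a sequence known as the CArG box.

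All values are log2 of the background-corrected signal minus the 75th percentile of that array, so that 0 marks the same point of every array. Levels are compared between lines for 1 probe at a time, since the signals of different probes are not on a common scale. All 4 arrays lay on 1 slide scanned on 1 day. The share of probes well above background was 53.8% and 55.5% in Ip6k1+/+ and 52.8% and 52.0% in Ip6k1-/- lines. The limit of detection differed between the genotypes. The faintest signal well above background was at -5.20 and -5.18 in Ip6k1+/+ and at -4.75 and -4.68 in Ip6k1-/- lines. Ip6k1 checked the labels. On 2 of its 3 probes the signal of both Ip6k1-/- lines was not well above background, and the gene was at least 34.0-fold and at least 32.7-fold higher in Ip6k1+/+ MEFs (limma adjusted p = 0.0355 for both). These are lower bounds, for which such a signal was replaced by the faintest one that its array still measured. The third probe, with a log2 signal of 2.46 and 2.61 in Ip6k1+/+ and of -1.98 and -1.23 in Ip6k1-/- lines, stayed above background (log2 difference -4.13, standard error 0.33, limma adjusted p = 0.367). All 10 fibroblast markers examined were well above background in every line on at least 1 probe, and 8 of 14 markers of other cell types, among them Ptprc of leukocytes, Pecam1 of endothelium and Cdh1 of epithelium, had no line well above background. Of the others, Cd68, Kdr, Krt18 and Tubb3 were well above background in all 4 lines on at least 1 probe, and Epcam and Krt8 in 1 line. The summed signal of the fibroblast markers was between 9.10 and 9.16 in Ip6k1+/+ and between 8.95 and 9.06 in Ip6k1-/- lines on the log2 scale, with several of them saturated. For the markers of other cell types it was 0.93 and 2.57 in Ip6k1+/+ lines and 0.95 and 2.41 in Ip6k1-/- lines. In such bulk samples, fewer cells with a transcript and less of it per cell cannot be told apart.

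All 14 probes of the 10 genes were well above background in all 4 lines, so that none was lost to the filter on dim probes. None differed between the genotypes in limma's test, in which the smallest adjusted p among them was 0.993 and none had an unadjusted p of 0.05 or less (Benjamini-Hochberg over 21572 probes). Over all 14334 genes tested, each read from its probe with the highest mean, the same test called 1 gene, or 0.00698%. That gene was not Ip6k1, whose probe with the highest mean had a log2 difference of -4.13 (limma adjusted p = 0.367). A difference of that size was thus left uncalled. The methods' t-test on the same values also gave none of the 10 at the study's threshold before adjustment, and no probe of the array after it. No member passed the 2-fold cutoff either, which asks for means that differ by 1 or more in log2 and for both Ip6k1-/- lines to sit 0.9 or more from the mean of Ip6k1+/+, and by which 1.07% of all genes were higher and 2.09% lower. The log2 differences of the 10 genes ran from -0.83 to 0.33, with 6 below and 4 above 0. Their median was -0.30 beside 0.04 over all genes tested, and it was -0.11 without Ip6k1+/+ replicate 1 and 0.00 without Ip6k1-/- replicate 2. For each of the 10 genes, the 2 lines of at least 1 genotype lay farther apart than the means of the genotypes, which held for 80.8% of all genes.

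**Figure D1:**
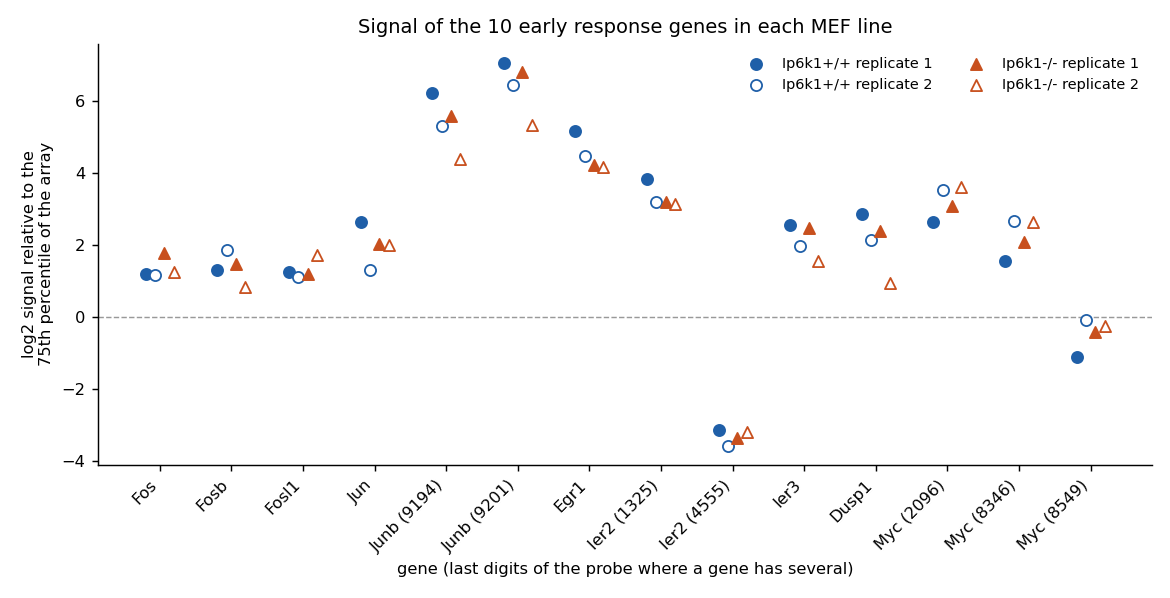
Log2 signal of each probe of the 10 genes relative to the 75th percentile of the array (y axis) in the 4 MEF lines, with circles for Ip6k1+/+ and triangles for Ip6k1-/- and with filled and open symbols for replicates 1 and 2. Lines are to be compared within a probe. All 14 probes were well above background in every line, and for most of them the symbols of the genotypes are interleaved.

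The Fos family supplies the AP-1 subunits that cannot pair with themselves. Fos, its best known member, had a log2 signal of 1.20 and 1.16 in Ip6k1+/+ MEFs, against 1.77 and 1.25 in Ip6k1-/- MEFs. Both Ip6k1-/- lines lay above both Ip6k1+/+ lines, replicate 1 clearly and replicate 2 narrowly. The log2 difference was 0.33 (standard error 0.26, 95% interval -0.35 to 1.02, limma adjusted p = 0.993). Of the 10 genes Fos was the one with the Ip6k1-/- lines above and not overlapping the Ip6k1+/+ lines, an arrangement found for 18.1% of all genes. Its probe lies at chr12:86817900-86817959 on the forward strand of mm9, the build that the array files name.

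Fosb, a relative of Fos that is also induced early, showed the opposite sign and a wider spread. The Ip6k1+/+ lines had a log2 signal of 1.30 and 1.87 for Fosb, against 1.46 and 0.83 for Ip6k1-/-. Ip6k1-/- replicate 2 was the lowest and Ip6k1+/+ replicate 2 the highest, so that the genotypes overlapped (log2 difference -0.44, standard error 0.34, limma adjusted p = 0.993). Fosl1, which encodes FRA-1 and responds later than Fos, was at a log2 signal of 1.26 and 1.09 in Ip6k1+/+ and of 1.18 and 1.73 in Ip6k1-/- lines. Here Ip6k1-/- replicate 2 was the highest of the 4 (log2 difference 0.28, standard error 0.27, limma adjusted p = 0.993). The 3 Fos family members thus had 3 different lines on top.

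For Fos, Jun and Myc the array repeats the same probe on 10 spots, which gives the measurement error within an array. The spots of Fos had SDs between 0.021 and 0.026 on the log2 scale, and those of Ip6k1-/- replicate 1, between 1.75 and 1.82, did not overlap the spots of any other line. Spot SDs were between 0.017 and 0.035 for Jun, after 1 or 2 outlier spots per array were left out, and between 0.033 and 0.047 for Myc. The Ip6k1+/+ lines of Jun and the lines of either genotype of Myc lay many spot SDs apart, whereas the Ip6k1-/- lines of Jun differed by no more than that. With 1 array per line, spot SDs hold no error of labelling or hybridisation. Spots are technical repeats and entered the test as 1 mean per line.

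**Figure D2:**
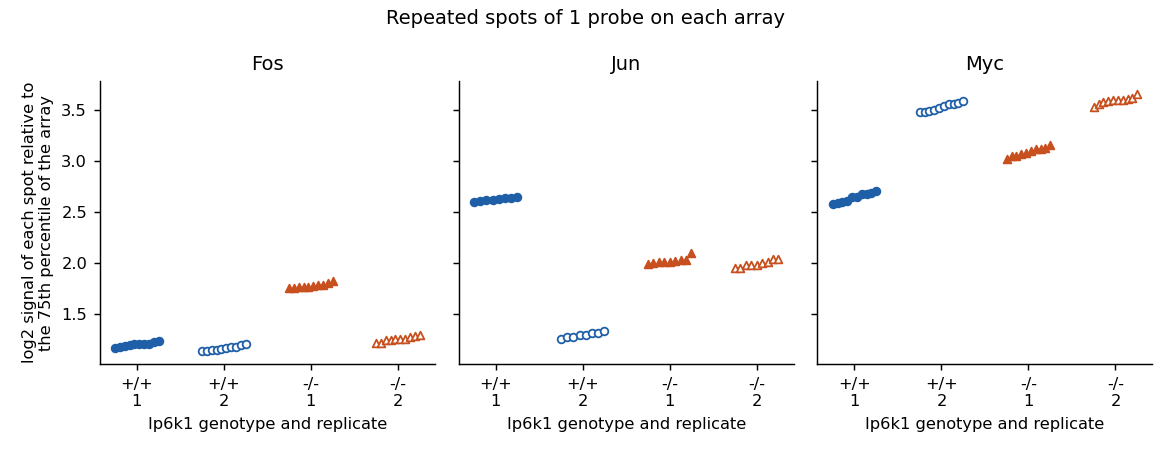
Log2 signal of every spot of the repeated probes of Fos, Jun and Myc relative to the 75th percentile of the array (y axis) by line (x axis, Ip6k1 genotype above replicate number), with circles for Ip6k1+/+ and triangles for Ip6k1-/-. The spots of a line lie close together, with SDs of at most 0.047, while Jun separates the Ip6k1+/+ lines by 1.33 and Myc by 0.89.

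The promoters of the early response genes were read next to these values, because the regulatory sequences named above lie close to the start of several of them. RefSeq promoter windows of GRCm38.p6 were at hand for 6 of the 10 genes, namely Fos, Fosb, Jun, Junb, Ier3 and Dusp1, and the 250 bases before the listed start were searched on both strands. The motifs were the CArG box, the cAMP response element TGACGTCA, the AP-1 site TGANTCA, the Egr site GCGGGGGCG and the TATA box TATAAA. A CArG box can include the letters TATAAA, so matches of these motifs may overlap. They were found in 1.47%, 1.55%, 6.75%, 2.57% and 12.4% of all 32851 windows, in that order. Among the 6 genes there was 1 match each for the TATA box, in Fos, the Egr site, in Fosb, and the cAMP response element, in Dusp1, and none for the CArG box or the AP-1 site within these windows. A match is a run of letters and not a measured binding site. Sequence farther upstream was not searched, so these windows do not show that a gene lacks a CArG box or an AP-1 site. The Fos window, chr12:85473640-85473889 on the forward strand, and the Fosb window, chr7:19310046-19310295 on the reverse strand, are shown as the sequences of the 2 Fos family members that differed in sign. Capitals mark the TATA box from -33 to -28 in Fos and the Egr site from -50 to -42 in Fosb, counted back from the start.
Fos: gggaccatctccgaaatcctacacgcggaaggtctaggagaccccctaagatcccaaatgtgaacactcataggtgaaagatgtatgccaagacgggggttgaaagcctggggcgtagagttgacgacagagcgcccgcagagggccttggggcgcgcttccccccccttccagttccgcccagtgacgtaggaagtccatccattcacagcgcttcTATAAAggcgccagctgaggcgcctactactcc
Fosb: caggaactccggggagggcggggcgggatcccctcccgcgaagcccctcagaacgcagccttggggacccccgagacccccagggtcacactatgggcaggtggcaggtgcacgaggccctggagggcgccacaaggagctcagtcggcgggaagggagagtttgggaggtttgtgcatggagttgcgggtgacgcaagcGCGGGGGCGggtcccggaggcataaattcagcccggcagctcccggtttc

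Jun proteins can pair with themselves or with Fos proteins. Jun had a log2 signal of 2.62 and 1.29 in Ip6k1+/+ MEFs, against 2.02 and 1.99 in Ip6k1-/- MEFs. Both Ip6k1-/- lines fell between the Ip6k1+/+ lines, which were 1.33 apart, and the log2 difference of the means was 0.05 (standard error 0.47, 95% interval -1.19 to 1.29, limma adjusted p = 0.994). Without Ip6k1+/+ replicate 2 the log2 difference of Jun was -0.62. The interval is wide enough to hold a change of 2-fold in either direction, so the value does not show that Jun was the same in both genotypes.

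Junb, a weaker activator than Jun that can oppose it, was read by 2 probes that overlap on chromosome 8 of mm9. Probe A_51_P159194, at chr8:87500843-87500902 on the reverse strand, had a log2 signal of 6.22 and 5.31 in Ip6k1+/+ and of 5.60 and 4.39 in Ip6k1-/- lines. Probe A_51_P159201, at chr8:87500881-87500940, gave 7.06 and 6.46 in Ip6k1+/+ and 6.80 and 5.35 in Ip6k1-/- lines, with the spot saturated in Ip6k1+/+ replicate 1. On both, Ip6k1-/- replicate 2 was lowest and Ip6k1+/+ replicate 1 highest, and Ip6k1-/- replicate 1 lay between the Ip6k1+/+ lines. The log2 differences were -0.77 (standard error 0.52) and -0.69 (standard error 0.53), each with a limma adjusted p of 0.993. Without Ip6k1-/- replicate 2, the log2 difference of the second, saturated probe was 0.039 and that of the first was -0.17.

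Egr1, the zinc finger activator, was lower in both Ip6k1-/- lines than in both Ip6k1+/+ lines. Its log2 signal was 5.18 and 4.48 in Ip6k1+/+ MEFs, against 4.22 and 4.17 in Ip6k1-/- MEFs. The Ip6k1-/- lines were close together, and the Ip6k1+/+ lines lay 0.69 apart. At a log2 difference of -0.63 (standard error 0.28, 95% interval -1.37 to 0.10), Egr1 had the smallest unadjusted p of the 10 genes, 0.0764, and a limma adjusted p of 0.993.

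Ier2, an early response gene whose product acts in the nucleus, showed the same order of lines on its bright probe. This probe, at chr8:87185211-87185245 as the files give it, had a log2 signal of 3.82 and 3.20 in Ip6k1+/+ and of 3.19 and 3.15 in Ip6k1-/- lines. The genotypes did not overlap, although Ip6k1+/+ replicate 2 and Ip6k1-/- replicate 1 were almost equal, and the log2 difference was -0.34 (standard error 0.27, limma adjusted p = 0.993). A second probe at chr8:87183623-87183681 was dim, with a log2 signal of -3.15 and -3.58 in Ip6k1+/+ and of -3.38 and -3.22 in Ip6k1-/- lines, and did not separate them (log2 difference 0.07, standard error 0.34). Egr1 and Ier2 were the 2 of 10 genes with both Ip6k1-/- lines below both Ip6k1+/+ lines, which 13.2% of all genes showed.

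Ier3, an early gene that protects cells from apoptosis, overlapped between the genotypes. It had a log2 signal of 2.56 and 1.98 in Ip6k1+/+ MEFs, against 2.46 and 1.55 in Ip6k1-/- MEFs (log2 difference -0.27, standard error 0.40, limma adjusted p = 0.993). Both replicates numbered 1 were above both numbered 2. Without Ip6k1-/- replicate 2 its log2 difference was 0.19, and without Ip6k1+/+ replicate 1 it was 0.03.

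Dusp1 had the lowest log2 difference of the 10 genes. It was at a log2 signal of 2.86 and 2.14 in Ip6k1+/+ and of 2.39 and 0.94 in Ip6k1-/- lines. Ip6k1-/- replicate 2 alone stood below, and Ip6k1-/- replicate 1 lay between the Ip6k1+/+ lines. The log2 difference of -0.83 (standard error 0.56, 95% interval -2.29 to 0.63, limma adjusted p = 0.993) was -1.56 for Ip6k1-/- replicate 2 against the Ip6k1+/+ mean and -0.11 for Ip6k1-/- replicate 1. Without Ip6k1-/- replicate 1, Dusp1 and Junb passed the 2-fold cutoff, on the single remaining Ip6k1-/- line. The window upstream of Dusp1, chr17:26508473-26508722 on the reverse strand of GRCm38.p6, is shown because it was the 1 of 6 with a complete cAMP response element, in capitals from -143 to -136.
Dusp1: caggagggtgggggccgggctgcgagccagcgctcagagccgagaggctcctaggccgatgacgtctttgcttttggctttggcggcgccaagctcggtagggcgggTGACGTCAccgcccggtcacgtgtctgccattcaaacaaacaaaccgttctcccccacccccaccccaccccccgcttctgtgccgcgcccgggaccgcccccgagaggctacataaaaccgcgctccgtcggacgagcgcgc

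Myc, the growth regulator, was read by 3 probes between 61820925 and 61821576 on chromosome 15 of mm9. The probe with 10 spots had a log2 signal of 2.64 and 3.53 in Ip6k1+/+ and of 3.09 and 3.60 in Ip6k1-/- lines. The second was at 1.56 and 2.66 in Ip6k1+/+ and 2.08 and 2.63 in Ip6k1-/- lines, and the third at -1.12 and -0.09 in Ip6k1+/+ and -0.43 and -0.25 in Ip6k1-/- lines. On all 3, Ip6k1+/+ replicate 1 was lowest and both lines numbered 2 were above both lines numbered 1. The probes gave log2 differences of 0.26 (standard error 0.38), 0.25 (standard error 0.44) and 0.27 (standard error 0.42), with a limma adjusted p of 0.993 for each. The first was -0.19 without Ip6k1+/+ replicate 1.

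Read across genes, the same lines often held the highest or the lowest value. How often they did so over all genes was not counted. Ip6k1+/+ replicate 1 was the highest line for 6 of the 10 genes, namely Jun, Junb, Egr1, Ier2, Ier3 and Dusp1, and the lowest for Myc. Ip6k1-/- replicate 2 was the lowest for 6, namely Fosb, Junb, Egr1, Ier2, Ier3 and Dusp1, and the highest for Fosl1 and Myc. Its deviation from the mean of the 4 lines was -1.14 for Dusp1, -1.07 for Junb and -0.59 for Ier3 on the log2 scale. These genes share 4 arrays, so their common pattern is a description of these lines.

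**Figure D3:**
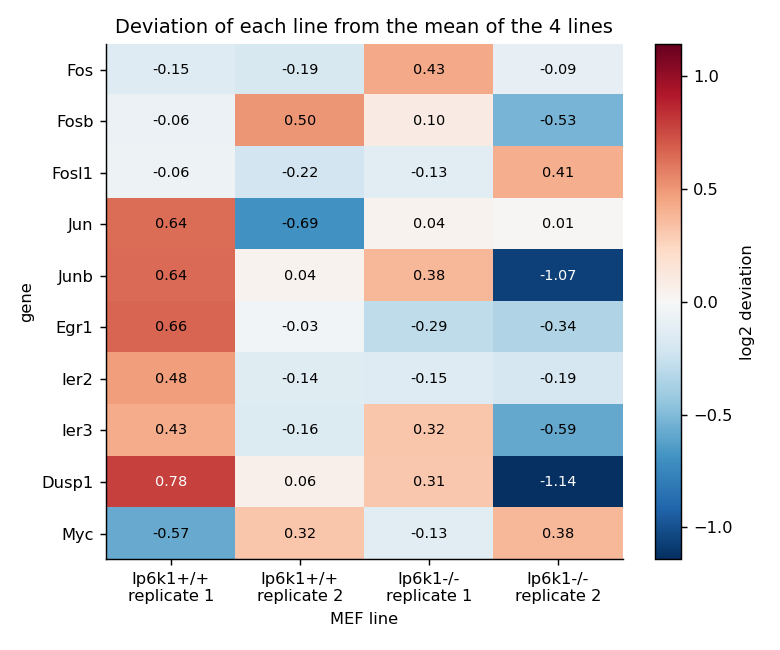
Log2 deviation of each MEF line (columns) from the mean of the 4 lines for each of the 10 genes (rows), read from the tested probe with the highest mean. Ip6k1+/+ replicate 1 was highest for 6 genes and Ip6k1-/- replicate 2 lowest for 6, with -1.14 for Dusp1 and -1.07 for Junb; the Junb probe was saturated in Ip6k1+/+ replicate 1.

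**Figure D4:**
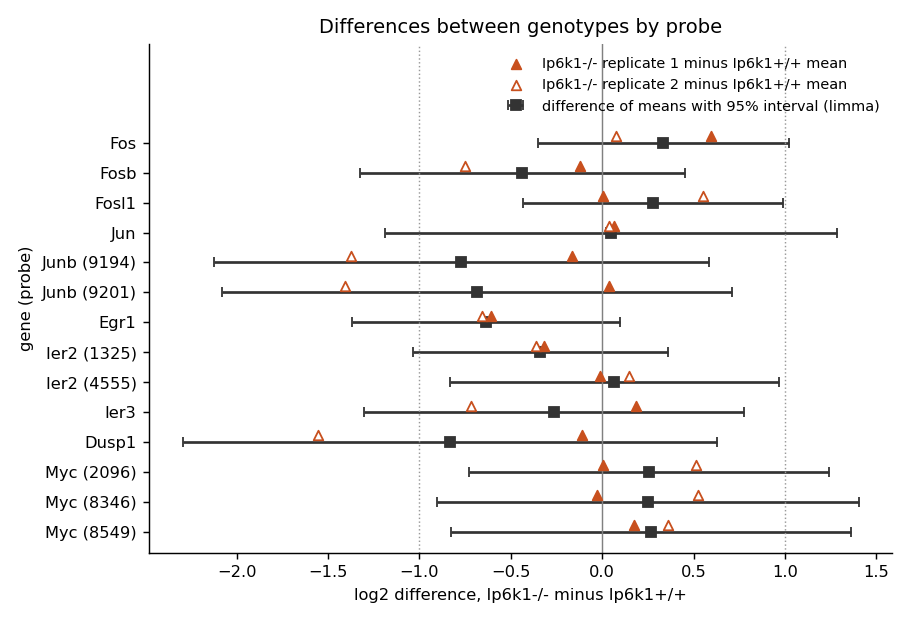
Log2 difference between Ip6k1-/- and Ip6k1+/+ MEFs for each probe of the 10 genes, with squares for the difference of the means, bars for the 95% interval of limma and triangles for each Ip6k1-/- line against the Ip6k1+/+ mean. Every interval includes 0, and the dotted lines mark a 2-fold difference; for Junb and Dusp1 only Ip6k1-/- replicate 2 lies beyond it.

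The genes whose profiles over the 4 lines were nearest were looked up for members that spanned at least 1 on the log2 scale, over 13193 genes well above background in every line and not saturated. With 4 lines this likeness is a description, measured as the Euclidean distance between profiles centred on their means. Nearest to Egr1 were Nenf at 0.039, Thra at 0.049 and Samd5 at 0.069. Nearest to Fosb were Arid5a at 0.043, Uap1l1 at 0.051 and Emilin1 at 0.058. Among the genes nearest to Jun were 2510022D24Rik at 0.074 and Mkl1 at 0.116, and Mkl1, which encodes a cofactor of SRF, had a log2 signal of 4.53 and 3.24 in Ip6k1+/+ and of 4.01 and 3.83 in Ip6k1-/- lines. For Ier3 the nearest were AK033818 at 0.053, Sgsh at 0.080 and Clstn1 at 0.080. For Junb they were Slc41a2 at 0.108, TC1624594 at 0.126 and Ngly1 at 0.144, and for Dusp1 Rpgrip1 at 0.096, Plagl1 at 0.146 and Ngly1 at 0.148.

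Genes around the 10 were examined in 12 lists, from the kinases above them to their partners and targets. Of 118 listed genes, 116 were on the array, 112 were well above background in at least 1 line and 109 were tested. None was called by limma after adjustment. At an unadjusted p of 0.05 or less, 8 were lower and 2 higher in Ip6k1-/- MEFs, against 2.33% and 1.35% of all genes. By the 2-fold cutoff, 5 were lower and none higher, against 2.09% and 1.07% of all genes. Among these 5, Batf, Egr3 and Il6 met the filter on dim probes through their Ip6k1+/+ lines alone, where they were higher. Their place in the count thus depends on the filter, as does that of Il6 among the 8 above. With every line required to be above background, 2 were lower by the 2-fold cutoff. The median log2 difference of the 109 genes was -0.05 beside 0.04 over all genes tested. The counts moved with single lines. By unadjusted p, 4 were lower and 7 higher without Ip6k1+/+ replicate 1, 13 and 4 without Ip6k1+/+ replicate 2, 9 and none without Ip6k1-/- replicate 1, and 6 and 2 without Ip6k1-/- replicate 2. Over the whole array, 721 of 21572 probes were at that p in either direction with all lines, and 668, 1425, 817 and 724 with these lines left out in the same order. By the 2-fold cutoff, in the same order of lines left out, 3, 12, 13 and 11 were lower and 2, 3, 4 and 3 higher. This cutoff was not counted over all genes with a line left out, so these counts have no share to be set against.

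Of the genes of the 12 lists with every line well above background, Egr2 and Nr4a1 had the largest differences, and both belong to the Egr and Nr4a transcription factors that are induced together with Egr1. Of 8 such genes with their Nab corepressors, 7 were tested, 2 were lower at an unadjusted p of 0.05 or less and 3 by the 2-fold cutoff, and the median log2 difference was -0.86. The shares of all genes that were lower by these criteria were 2.33% and 2.09%. Nr4a1, an orphan nuclear receptor, had a log2 signal of 6.41 and 6.39 in Ip6k1+/+ and of 4.38 and 4.85 in Ip6k1-/- lines, with the spot saturated in Ip6k1+/+ replicate 2. Both Ip6k1-/- lines were well below both Ip6k1+/+ lines (log2 difference -1.79, standard error 0.22, limma unadjusted p = 0.000605 and adjusted p = 0.675). Egr2 was at a log2 signal of 2.42 and 1.85 in Ip6k1+/+ and of -0.49 and 0.47 in Ip6k1-/- lines. It too did not overlap (log2 difference -2.15, standard error 0.42, limma unadjusted p = 0.00415 and adjusted p = 0.993). Egr3 was at -1.19 and -2.13 in Ip6k1+/+ and at -2.79 and -5.22 in Ip6k1-/- lines, the last of which was not well above background (log2 difference -2.34, standard error 0.90, limma adjusted p = 0.993), and its other probe had no line well above background. With each line left out in turn, the log2 difference ran from -2.02 to -1.55 for Nr4a1 and from -2.63 to -1.67 for Egr2. For Egr3 it was -1.13 without the dim Ip6k1-/- replicate 2, and -1.19 over all lines with normexp correction. The upstream windows of Nr4a1 and Egr2 are shown because their differences were the largest among the genes with every line well above background. The Nr4a1 window, chr15:101266596-101266845 on the forward strand of GRCm38.p6, holds the reverse complement of the Egr site in capitals from -60 to -52. RefSeq lists 5 starts for Egr2, of which 4 have a CArG box upstream, and the window at chr10:67537619-67537868 on the forward strand has it in capitals from -72 to -63. Other listed genes have these motifs and were not called lower. With an Egr site they ran from -1.02 for Dusp2 to 0.70 for Rps6ka1 in log2 difference. With a CArG box, Srf was at -0.19 and Zfp36 at -0.74. Whether a motif bears on the differences was not tested.
Nr4a1: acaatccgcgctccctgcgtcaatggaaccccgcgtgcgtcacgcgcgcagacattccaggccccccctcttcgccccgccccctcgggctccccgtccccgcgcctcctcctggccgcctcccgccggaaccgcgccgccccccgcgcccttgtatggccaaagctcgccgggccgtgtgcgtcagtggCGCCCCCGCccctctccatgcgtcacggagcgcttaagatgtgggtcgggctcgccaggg
Egr2: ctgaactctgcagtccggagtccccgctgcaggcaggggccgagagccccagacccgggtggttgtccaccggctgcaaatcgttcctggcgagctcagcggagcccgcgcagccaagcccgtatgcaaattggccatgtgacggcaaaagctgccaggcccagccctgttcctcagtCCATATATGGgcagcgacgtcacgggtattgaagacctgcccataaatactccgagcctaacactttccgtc

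Other early response genes included further low values in Ip6k1-/- MEFs. Of 24 listed genes, 22 were tested, and 4 were lower and none higher at an unadjusted p of 0.05 or less, with a median log2 difference of -0.19. At that p, 2.33% of all genes were lower and 1.35% higher. Ier5, a relative of Ier2, had a log2 signal of 5.89 and 5.63 in Ip6k1+/+ and of 4.98 and 5.19 in Ip6k1-/- lines (log2 difference -0.68, standard error 0.19, limma adjusted p = 0.993). Csrnp1, listed on the array as Axud1, a nuclear protein induced by growth signals, was at 3.83 and 3.60 in Ip6k1+/+ and at 2.55 and 2.94 in Ip6k1-/- lines on its brightest probe (log2 difference -0.97, standard error 0.23, limma adjusted p = 0.993). Its other probes gave log2 differences of -0.88 and, on a dim one, -0.31. Ccl2, a chemokine that growth factors induce in fibroblasts, was at 6.69 and 6.22 in Ip6k1+/+ and at 4.97 and 5.65 in Ip6k1-/- lines (log2 difference -1.15, standard error 0.31, limma adjusted p = 0.993). On these probes of Ier5, Csrnp1 and Ccl2 the genotypes did not overlap, with Ip6k1-/- lower, which the dim Csrnp1 probe did not show. These genes were named for their unadjusted p, so their separation adds nothing to it. Of the 22 genes, 5 had both Ip6k1-/- lines below both Ip6k1+/+ lines and 1 had them above, against 13.2% and 18.1% of all genes. For Il6, an inflammatory cytokine, the Ip6k1-/- lines both lacked a signal well above background, and Ip6k1+/+ MEFs were at least 7.05-fold higher, with a log2 signal of -1.46 and -2.33 there (limma adjusted p = 0.716). That bound depends on the background correction, as the log2 difference of Il6 was -3.01 here, -2.49 in the deposited log2 values, which is smaller than the bound, and -1.39 with normexp correction. The Ip6k1-/- lines were at -5.02 and -4.80 for Il6, above the faintest signal well above background on the Ip6k1+/+ arrays.

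The remaining lists held single genes at this level. Among 10 other AP-1 and bZIP partners, all tested, Batf passed the 2-fold cutoff. Neither Ip6k1-/- line was well above background for it, and Ip6k1+/+ MEFs exceeded them at least 2.57-fold. The log2 signal in Ip6k1+/+ lines was -1.91 and -4.79, so that this rests mainly on Ip6k1+/+ replicate 1. The value of -4.79 was below the faintest signal well above background on either Ip6k1-/- array. The log2 difference of Batf was -2.51 here and -0.74 with normexp correction, which is smaller than the bound. Jund, the third Jun gene, had a log2 difference of -0.05. Of 13 phosphatases and feedback inhibitors of the Ras-ERK pathway, 11 were tested, and Spry2 was lower at an unadjusted p of 0.0251 by limma on its brighter probe (log2 difference -0.85, standard error 0.26) but not on the other (log2 difference -0.00). Of the 17 kinases and Ras genes, all tested, Nras was higher at an unadjusted p of 0.0376 by limma (log2 difference 0.62, standard error 0.22), and its other probes gave 0.82 and 0.37. Among 10 Myc partners and antagonists, 9 were tested and Mnt, a repressor that pairs with MAX, had a log2 difference of -0.58 (standard error 0.18, limma adjusted p = 0.993). Of 8 known Myc targets, all tested, 7 had a log2 difference above 0, with a median of 0.41. Over the 14334 genes tested, 7879 were above 0. Among the 8 targets, Srm, spermidine synthase, was the one at an unadjusted p of 0.05 or less (log2 difference 0.63, standard error 0.21, limma adjusted p = 0.993).

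No gene of the remaining 5 lists reached an unadjusted p of 0.05 or the 2-fold cutoff. The Krueppel-like factors of the early response, all 4 tested, had a median log2 difference of -0.49, with Klf10 at -0.95 and Klf4 at -0.65. Zfp36 and Zfp36l1, which trigger decay of early response mRNAs, were at -0.74 and -0.31, and the median of its list of 3 was -0.31. Of SRF and its cofactors, 5 of 7 were tested, with SRF itself at a log2 difference of -0.19, Elk3 at 0.48 and Mkl2 at 0.30. Among the AP-1 targets, 5 of 6 tested, Ccnd1 was at 1.19 and Mmp13 at -0.93, the latter with Ip6k1-/- replicate 2 not well above background. The 8 heat shock genes, listed because cell handling can induce them, had a median of 0.16, with Hspb1 at 0.51 and Hspa1a at -0.47.

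**Figure D5:**
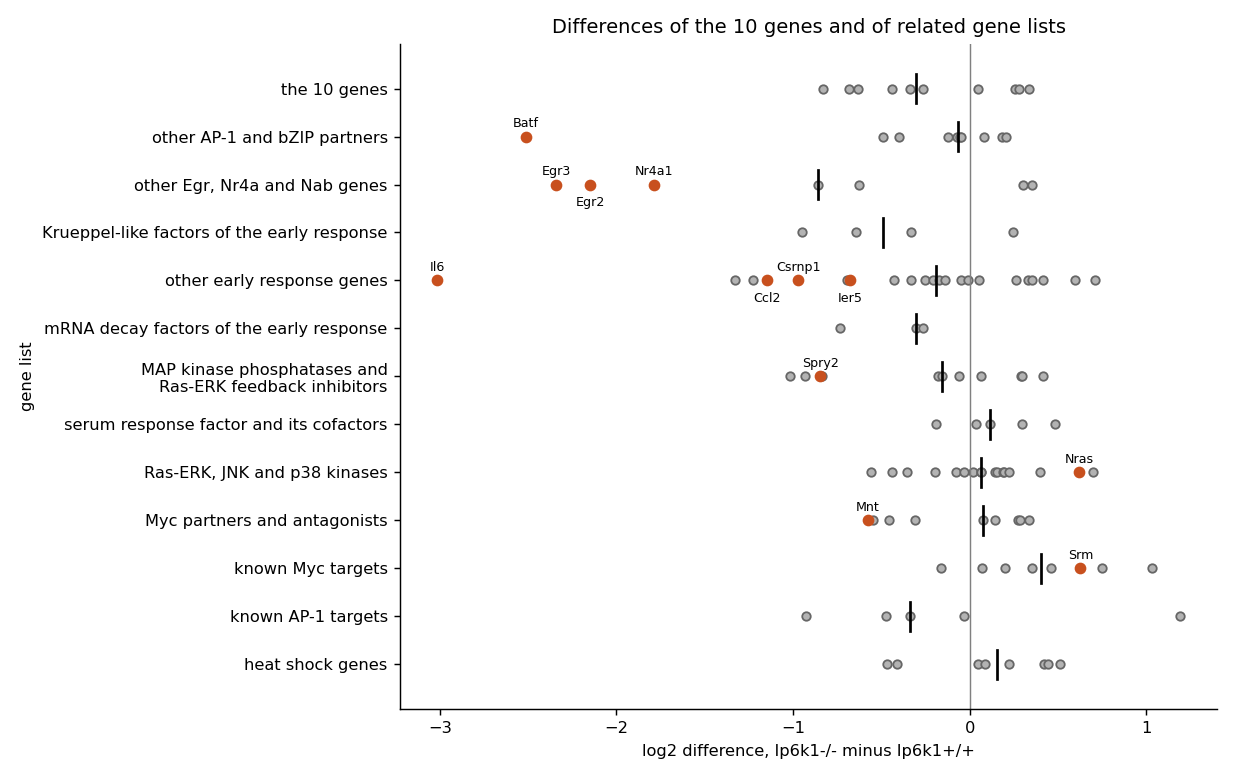
Log2 difference between Ip6k1-/- and Ip6k1+/+ MEFs (x axis) for the 10 genes and for 12 lists of related genes (rows), 1 point per tested gene with a black bar at the median of the list. Named orange points had an unadjusted p of 0.05 or less or passed the 2-fold cutoff. Of these 12, 10 lie below 0, among them Nr4a1, Egr2 and Egr3. Batf, Egr3 and Il6 entered the test through their Ip6k1+/+ lines alone.

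No marker of a cell type differed between the genotypes after adjustment. Of the 10 fibroblast markers, 3 were lower in Ip6k1-/- MEFs at an unadjusted p of 0.05 or less by limma and none was higher. Of all genes, 2.33% were lower and 1.35% higher at that p. The 3 were Pdgfrb, a receptor for the serum growth factor PDGF, at a log2 difference of -1.20 (standard error 0.19, limma adjusted p = 0.795), Col3a1 at -1.25 and Dcn at -2.40. As a set, the 10 markers had 5 log2 differences above 0 and 5 below, with a median of -0.12 and a highest value of 1.03. Of the markers of other cell types 4 were tested, and Kdr of endothelium was higher at a log2 difference of 1.56 (standard error 0.55, limma adjusted p = 0.993), while the endothelial markers Pecam1 and Cdh5 had no line well above background. Their part in the values of the early response genes was not tested.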

How the data were processed

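RNA of 4 MEF lines, 2 per genotype, was measured on single-colour Agilent 4x44K arrays. The authors deposited the spot intensity of Feature Extraction 10.5.1.1, background-corrected on a linear scale, as well as their own log2 values, shifted to the 75th percentile in GeneSpring. Array positions are on mm9, per the file headers. Here log2 of the processed intensity minus the 75th percentile of the array's 43379 gene spots was used, with control spots excluded. Outlier spots were left out, spots of a probe were averaged, and saturated spots were kept. Testing required a signal well above background in both lines of a genotype, met by 21572 of 41174 probes. The test was limma 3.58.1 (lmFit, then eBayes allowing a trend of variance with level; R 4.3.3), p-values were adjusted after Benjamini-Hochberg over every tested probe, and the procedure was tested on simulated data. Each gene was counted by its tested probe with the highest mean.

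The 10 genes and the lists were chosen with earlier results of these data known. All probes of the 10 are given, with related genes named at an unadjusted p of 0.05 or less or past the 2-fold cutoff, and otherwise up to 2 per list with the largest differences. The 3 genes with the nearest profiles are given for members whose lines span at least 1 in log2, except 1 gene that is not reported here. Jund, Srf, Mkl1 and other probes of named genes were added after their values were seen. Alternatives were quantile or median normalization, normexp correction (offset 50), the deposited log2 values, other filters and probe rules, a replicate block, no variance trend, the methods' t-test, and leaving out each line. The use of unsaturated probes alone and the counts over the lists were added after seeing the data. Precision is limited by having 2 arrays for each genotype.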

Additional observations from a re-analysis of the deposited data

How the results depend on the processing

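No alternative, and no line left out, gave a limma call among the 10 genes or among the related genes. Among the 10, 2 passed the 2-fold cutoff as lower without Ip6k1-/- replicate 1 and none in any other setting, and none as higher in any. Their median log2 difference was between -0.59 and 0.00 with each line left out and between -0.33 and -0.20 under the other alternatives. The log2 difference changed sign for 4 genes with a line left out. It ran from -0.62 (without Ip6k1+/+ replicate 2) to 0.72 for Jun, from -1.41 to 0.039 (without Ip6k1-/- replicate 2) for Junb on its probe saturated in 1 line, where the other probe stayed at -0.17, from -0.72 to 0.19 (without Ip6k1-/- replicate 2, and 0.026 without Ip6k1+/+ replicate 1) for Ier3, and from -0.19 (without Ip6k1+/+ replicate 1) to 0.70 for Myc. The causes were not tested.

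Of the 109 related genes tested, 5 were lower by the 2-fold cutoff, against 3 with normexp, 2 when a probe had to be above background in all 4 lines and 9 by the mean difference alone, where 2 were higher. The cutoff was not counted over all genes under these alternatives, so the counts of the 109 have no share beside them. With a line left out these counts ran from 3 to 13 lower and from 2 to 4 higher, and the same counts over all genes were not made. At an unadjusted p of 0.05 or less, 8 were lower and 2 higher, against 4 lower by the methods' t-test, 1 higher with the mean of a gene's probes and none higher without the variance trend, and with a line left out 4 to 13 lower and 0 to 7 higher. With replicate number as a block these were 17 lower and 5 higher, while over the whole array the number of tested probes at that p went from 721 to 1765, and 3 of the 10 genes were lower, namely Junb, Egr1 and Dusp1, with a smallest blocked limma adjusted p of 0.451, on the other Junb probe, and of 0.519 on the probes with the highest means. Nothing in the labels says that the numbers pair the lines. Deviations of replicate 1 from its genotype's mean correlated at 0.48 between genotypes across tested probes, and the block gave 0 limma calls among the 10 genes. Leaving out the filter on dim probes moved the median of all genes to 0.18 on the log2 scale.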
